A study of Mus musculus with 34 samples.

Results

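H3K4me3 promoters before and after LPS were compared in mouse bone marrow-derived dendritic cells (BMDCs) that express CTCF. Each protein-coding gene on an autosome gave 1 promoter, a window reaching 2.5 kb up and downstream from where its longest transcript begins, and there were 20807 of them. A promoter was placed by whether it held at least 1 bp of an H3K4me3 peak in the list of unstimulated cells (WT), of LPS-stimulated cells (WTLPS), of both or of neither. Of the 20807, 11898 had a peak in both lists, 241 in WTLPS only, 160 in WT only and 8508 in neither, so that 12299 promoters carried the mark in at least 1 list.

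Trimethylation of histone H3 at lysine 4 marks the start sites of active genes and of CpG-rich genes that are held silent but poised, where it overlaps H3K27me3, the mark of Polycomb repression. H3K27ac marks active promoters and enhancers. LPS binds TLR4 on dendritic cells and releases NF-κB, whose subunit p65 (RelA) enters the nucleus and binds inflammatory genes, while interferon made by the same cells induces antiviral genes through STAT and IRF factors.

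Cells came from bone marrow of C57BL/6 mice labelled as 8 weeks old and were grown with GM-CSF for 6 days. WT and WTLPS cells carried CreER, a Cre recombinase activated by tamoxifen and driven, by the study's methods, from the ubiquitous Rosa26 locus, and intact Ctcf alleles, and WTLPS cells received LPS at 100 ng/ml for 3 h. KO and KOLPS cells, used here as separate libraries for the same comparison, carried CreER with loxP-flanked Ctcf alleles and were otherwise treated alike. On day 1 of culture 4-OH tamoxifen was added to delete Ctcf. After culture, CD11c+ cells were selected with microbeads, by the same methods. Whether cells of the 4 conditions shared a donor mouse is not given in the sources used here. Each antibody and condition had 1 peak list, so no difference between lists could be set against replicates and no test was made. Intervals in parentheses are 95% Wilson intervals and cover counting error only.

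H3K4me3 lists held 24135 peaks in WT and 23314 in WTLPS, with 1.23 and 1.15 background fragments on each base. A call needed few fragments, 6 at the weakest peak of either list. All 13 marker genes of dendritic cells and their precursors, Itgax, Cd74 and Zbtb46 among them, had H3K4me3 in both lists. Of 22 marker genes of other cell types, 8 had it in WT and 7 in WTLPS, including Lck, Pax5 and Klf1, while Cd3e, Mpo and Pecam1 had none. In bulk chromatin, fewer cells with the mark and less of the mark per cell cannot be told apart, and the part of any other cells left after the CD11c selection was not tested.

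The promoters below show what the WTLPS-only class held. First are, for 3 of them, the 101 bases around the p65 summit of WTLPS-only promoters that also carried H3K27ac, read 5′ to 3′ on the strand of the gene in GRCm38, with the 11 central bases in capitals.
Slpi (chr2:164356748-164356848, minus strand): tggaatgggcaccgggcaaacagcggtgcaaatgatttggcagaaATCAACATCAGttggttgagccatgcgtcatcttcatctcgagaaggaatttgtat
Il12b (chr11:44399820-44399920, plus strand): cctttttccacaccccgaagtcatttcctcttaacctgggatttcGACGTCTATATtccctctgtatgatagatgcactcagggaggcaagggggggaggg
Marco (chr1:120505020-120505120, minus strand): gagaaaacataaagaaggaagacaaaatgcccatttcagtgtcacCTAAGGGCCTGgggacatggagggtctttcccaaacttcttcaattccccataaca
The p65 summit at Il1rn was the only 1 of 11 p65 peaks in WTLPS-only promoters with a match to the 10-base NF-κB consensus within 50 bases, on either strand, and its match is in capitals here. Over all 5465 p65 peaks of WTLPS, 11.9% held a match.
Il1rn (chr2:24335433-24335533, plus strand): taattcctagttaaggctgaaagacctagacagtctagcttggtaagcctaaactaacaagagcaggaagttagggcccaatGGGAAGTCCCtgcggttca

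Next are the 250 bases before the start site of the 4 named WTLPS-only promoters with H3K27ac that held the core of interferon response elements, GAAA and GAAA set 2 bases apart, on either strand. The match is in capitals.
Ifi205 (chr1:174031811-174032060, minus strand): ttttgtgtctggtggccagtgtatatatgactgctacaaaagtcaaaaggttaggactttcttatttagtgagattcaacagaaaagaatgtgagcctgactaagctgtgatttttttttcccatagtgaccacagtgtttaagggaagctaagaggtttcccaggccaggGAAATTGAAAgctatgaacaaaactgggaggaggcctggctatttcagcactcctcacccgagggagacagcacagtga
Tgtp1 (chr11:48992259-48992508, minus strand): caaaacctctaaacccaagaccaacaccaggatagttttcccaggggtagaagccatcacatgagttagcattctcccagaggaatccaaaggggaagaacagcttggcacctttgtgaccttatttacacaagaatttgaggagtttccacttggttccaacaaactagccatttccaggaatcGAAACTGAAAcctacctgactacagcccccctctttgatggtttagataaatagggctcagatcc
Ifit1bl1 (chr19:34601957-34602206, minus strand): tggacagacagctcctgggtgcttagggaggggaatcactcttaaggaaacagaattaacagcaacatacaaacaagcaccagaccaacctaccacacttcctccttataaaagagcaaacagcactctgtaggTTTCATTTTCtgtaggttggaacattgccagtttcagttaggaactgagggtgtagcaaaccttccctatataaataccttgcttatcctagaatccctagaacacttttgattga
Ifi208 (chr1:173673430-173673679, plus strand): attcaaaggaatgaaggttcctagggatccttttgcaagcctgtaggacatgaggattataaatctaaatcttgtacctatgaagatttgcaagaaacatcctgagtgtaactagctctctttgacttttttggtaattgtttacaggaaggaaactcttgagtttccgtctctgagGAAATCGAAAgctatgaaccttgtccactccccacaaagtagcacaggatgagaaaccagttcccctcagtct
The same core stood before 7 of the 15 promoters in both lists with the largest gain of H3K4me3 in WTLPS, of which 3 are shown, and at 3.35% of all promoters in both. The windows of Ifit1 and Ifit1bl2, counted among the 7, overlap and hold the same matches on opposite strands.
Il27 (chr7:126594942-126595191, minus strand): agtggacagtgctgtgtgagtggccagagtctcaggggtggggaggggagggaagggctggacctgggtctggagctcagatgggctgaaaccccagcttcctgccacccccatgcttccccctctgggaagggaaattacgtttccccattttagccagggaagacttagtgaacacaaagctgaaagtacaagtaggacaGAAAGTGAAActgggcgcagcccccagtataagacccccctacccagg
Ifit3 (chr19:34583281-34583530, plus strand): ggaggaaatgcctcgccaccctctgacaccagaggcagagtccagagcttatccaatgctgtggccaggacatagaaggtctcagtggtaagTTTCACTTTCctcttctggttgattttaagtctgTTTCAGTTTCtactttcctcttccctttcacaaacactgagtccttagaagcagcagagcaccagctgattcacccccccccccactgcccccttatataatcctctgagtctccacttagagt
Rsad2 (chr12:26456432-26456681, minus strand): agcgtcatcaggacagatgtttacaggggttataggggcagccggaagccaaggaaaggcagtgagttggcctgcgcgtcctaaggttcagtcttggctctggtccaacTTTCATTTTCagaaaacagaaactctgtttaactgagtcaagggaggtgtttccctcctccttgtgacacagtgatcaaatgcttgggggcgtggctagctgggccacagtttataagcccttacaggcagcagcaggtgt
Last is Six2, a homeobox factor of kidney development, as an example of the CpG-rich WTLPS-only promoters that carried H3K27me3, with every CG in capitals.
Six2 (chr17:85688275-85688524, minus strand): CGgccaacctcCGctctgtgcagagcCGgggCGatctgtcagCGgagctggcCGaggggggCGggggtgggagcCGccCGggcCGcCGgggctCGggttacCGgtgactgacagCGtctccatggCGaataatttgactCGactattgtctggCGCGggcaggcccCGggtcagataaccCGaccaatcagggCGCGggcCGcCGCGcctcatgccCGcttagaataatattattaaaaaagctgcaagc

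The question the comparison addresses is where LPS adds or removes the promoter mark within 3 h. WTLPS-only promoters made up 1.16% of all promoters and 1.99% (1.75 to 2.25%) of those with a peak in WTLPS, and WT-only promoters 0.769% of all and 1.33% (1.14 to 1.55%) of those with a peak in WT. Both classes were thus small beside the 11898 promoters that carried the mark throughout. Few promoters within a class shared a peak, 12 of the 241 WTLPS-only and 6 of the 160 WT-only promoters.

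The shares of WTLPS-only promoters and of promoters in both with p65 had intervals that overlapped. In WTLPS, p65 peaks lay at 2.96% of all promoters, at 4.56% (2.57 to 7.99%) of WTLPS-only, 4.68% (4.32 to 5.08%) of both, 1.88% (0.640 to 5.37%) of WT-only and 0.529% (0.396 to 0.707%) of the promoters with no H3K4me3. In unstimulated cells p65 lay at 0.49% of all promoters, at 1 WTLPS-only, 1 WT-only and 95 promoters in both. Of the 616 promoters with p65 in WTLPS, 557 carried H3K4me3 in both lists and 11 in WTLPS only.

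H3K27ac reached no more than 25% of the promoters in 1 list only. In WTLPS it lay at 42.6% of all promoters and at 70.1% (69.3 to 70.9%) of those in both, but at 14.5% (10.6 to 19.5%) of the WTLPS-only and 23.8% (17.8 to 30.9%) of the WT-only class. In WT it lay at 45.5% of all promoters, 75.2% (74.4 to 75.9%) of those in both, 11.2% (7.81 to 15.8%) of WTLPS-only and 25% (18.9 to 32.2%) of WT-only promoters. An H3K27ac peak in WTLPS with none in WT was present at 14 of the 241 WTLPS-only promoters, 5.81% (3.49 to 9.51%), against 2.41% of all promoters. The reverse, acetylation in WT alone, was present at 6 WTLPS-only and 8 WT-only promoters.

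H3K27me3 was the most frequent mark of the WTLPS-only class. In WT it lay at 182 of the 241 promoters, 75.5% (69.7 to 80.5%), against 53.8% (46.0 to 61.3%) of WT-only promoters, 24.1% (23.4 to 24.9%) of both, 31.9% (30.9 to 32.9%) of neither and 28.1% of all. In WTLPS the share was 66.4% (60.2 to 72.1%) of WTLPS-only promoters, 48.1% (40.5 to 55.8%) of WT-only promoters and 21.6% of all. The H3K27me3 peaks covered 56.7 Mb in WTLPS and 117 Mb in WT, and the share was lower in WTLPS in every class. With the same lowest p in both lists, the WT share was 74.3% of WTLPS-only and 51.9% of WT-only promoters.

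**Figure D1:**
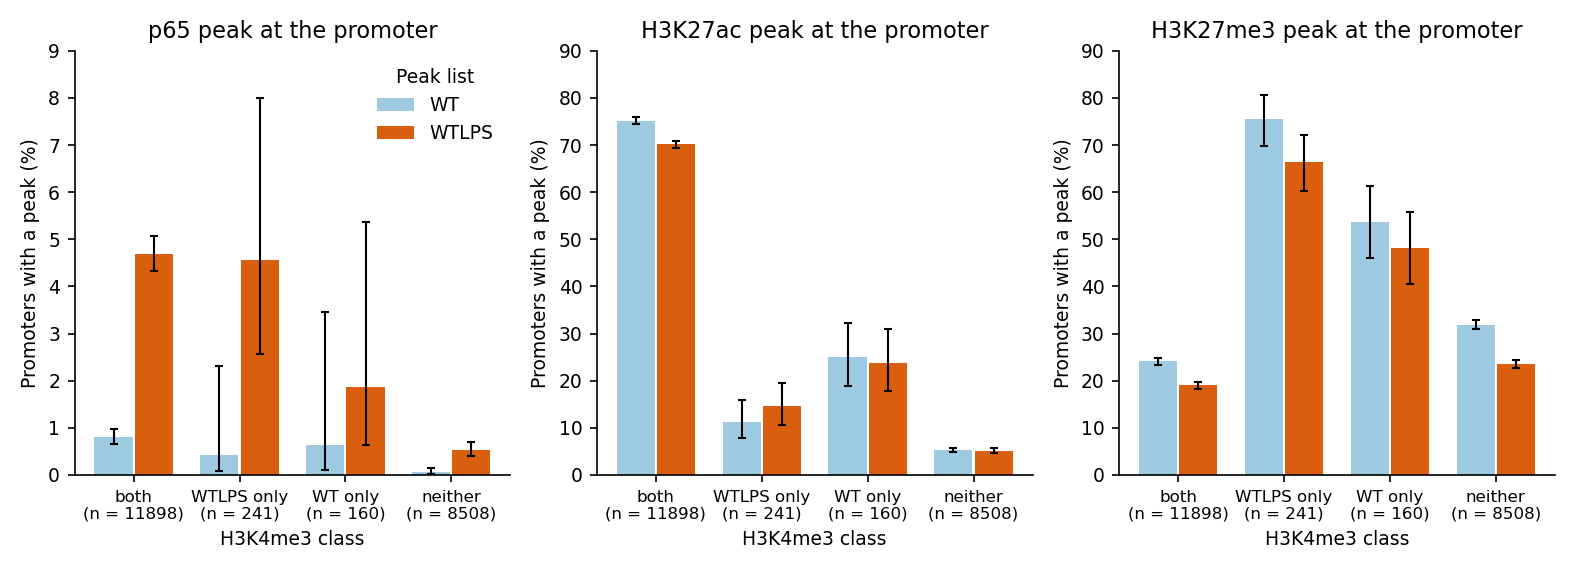
Percent of promoters with a p65, H3K27ac or H3K27me3 peak in WT (blue) and WTLPS (orange), for promoters with H3K4me3 in both lists, WTLPS only, WT only or neither; bars carry 95% Wilson intervals for counting error. p65 reaches 4.68% of both and 4.56% of WTLPS-only promoters with LPS, H3K27ac reaches 75.2% of both and at most 25% of the promoters in 1 list, and H3K27me3 is highest in WTLPS-only promoters, at 75.5% in WT.

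H3K27ac and H3K27me3 lay mostly at different WTLPS-only promoters. H3K27ac in WTLPS lay at 35 promoters, H3K27me3 in WT at 182, both at 7 and neither mark at 31. p65 lay at 3 of the 182 H3K27me3 promoters in WTLPS, 1.65% (0.562 to 4.73%), an interval that holds the 2.96% of all promoters, and at 10 of the 35 acetylated ones, 28.6% (16.3 to 45.1%). The cohesin subunit SMC1 lay at 17 of the 35 acetylated promoters in WT and 24 in WTLPS, and at 30 of the 182 H3K27me3 promoters in each. Over all promoters SMC1 lay at 31.8% in WT and 28.3% in WTLPS, and over those in both at 46.9% and 41.4%.

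Promoters in 1 list only had weak, short peaks near the lowest value called. The fold over background of the strongest peak in the window had a median of 4.64 (quartiles 4.08 and 5.21) at WTLPS-only promoters, against 28.8 at promoters in both in the same list. At WT-only promoters it was 4.48 (3.92 and 5.20), against 29.1 for both in the WT list. Peaks covered a median of 382 bp of the 5001 bp window at WTLPS-only and 300.5 bp at WT-only promoters, against 2676.5 and 2931 bp at promoters in both. The start site itself lay inside a peak at 75 of 241 WTLPS-only, 30 of 160 WT-only and 10849 of 11898 promoters in both (WTLPS list). Where it could be recovered, the number of fragments at the summit had a median of 9 at WTLPS-only and 8 at WT-only promoters, close to the 6 of the weakest call. The 35 acetylated WTLPS-only promoters had a median fold of 5.57 and 600 bp covered, and the 182 with H3K27me3 had 4.57 and 395.5 bp.

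**Figure D2:**
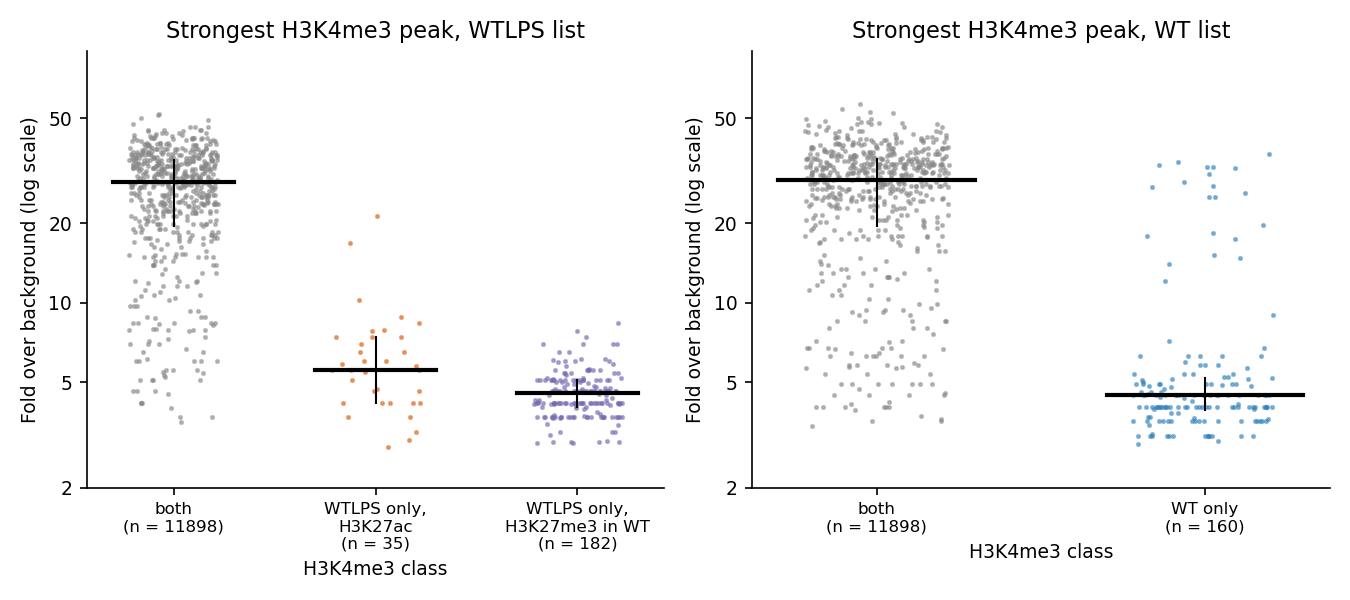
Fold over background, on a log axis, of the strongest H3K4me3 peak at each promoter in the WTLPS list (left) and the WT list (right); points are promoters (at most 600 drawn per class), thick lines are medians and thin lines the quartiles. Promoters in 1 list only lie near a fold of 5, below the 28.8 and 29.1 of promoters in both, and the WT-only points above 10 are mostly edges of strong peaks outside the window.

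WTLPS-only promoters with p65 and H3K27ac numbered 10 and held several genes known as LPS targets. Il12b, the p40 subunit of IL-12 and IL-23 (chromosome 11, start site at 44400063), had H3K4me3 over 0 bp of its window in WT and 2065 bp in WTLPS (fold 7.43, 15 fragments at the summit). Its p65 peak (fold 10.8) lay 193 bp before the start, and H3K27ac covered 907 bp in WT and 4255 bp in WTLPS. In cells without CTCF its H3K4me3 covered 0 bp in KO and 862 bp in KOLPS.

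Slpi, a secreted inhibitor of neutrophil proteases (chromosome 2, start site at 164356507), had 0 and 1033 bp of H3K4me3 (fold 8.36), p65 of fold 12.4 and H3K27ac over 0 bp in WT and 528 bp in WTLPS. Il1rn, the antagonist of the IL-1 receptor (chromosome 2, start site at 24336856), had 0 and 1426 bp of H3K4me3 and the nearest WT peak 8120 bp away. H3K27ac covered 3790 bp of its window before LPS and 4684 bp after, so that acetylation was called there without H3K4me3 before LPS. Marco, a scavenger receptor for bacteria (chromosome 1, start site at 120505024), had 0 and 1076 bp of H3K4me3 and p65 of fold 17.8 whose summit lay 46 bp before the start.

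Serpinb2, an inhibitor of plasminogen activators, had 570 bp of H3K4me3 in WTLPS, with p65 (fold 11.3) and H3K27ac in WTLPS alone. Cxcl9, a chemokine for activated T cells, had a weak peak (fold 3.71, 7 fragments), p65 of fold 8.08, and H3K27me3 over 1679 bp in WT and 190 bp in WTLPS. The other 4 were Rnase10 (H3K4me3 fold 5.48), the receptor subunit Il20rb (4.18), the nucleotidase Nt5c1a (4.18) and Fcrlb (3.71), and Fcrlb alone had p65 before LPS. Of the 11 WTLPS-only promoters with p65 in WTLPS, SMC1 lay at 7 in WT and 11 in WTLPS, and p65 lay at 2 WTLPS-only promoters in KOLPS. Of the 557 promoters in both with p65 in WTLPS, 89.2% had SMC1 in WT and 94.1% in WTLPS, so SMC1 beside p65 was not particular to the WTLPS-only class. The eleventh, at the axon guidance gene Draxin, had H3K27me3 and no H3K27ac.

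Of the 35 listed interferon-stimulated genes, 2 were among the acetylated WTLPS-only promoters without p65, Ifi44 and Tgtp1. Ifi205, Ifi206 and Ifi208, members of the PYHIN family of DNA sensors that lie together on chromosome 1, had 0 bp in WT and 2548 bp (fold 21.4), 1400 bp (fold 10.2) and 401 bp (fold 4.64) in WTLPS. H3K27ac at Ifi205 covered 944 bp in WT and 4591 bp in WTLPS, and at Ifi206 0 and 3278 bp. Ifi44 had 1646 bp of H3K4me3, the interferon-induced GTPase Tgtp1 1545 bp and Ifit1bl1 750 bp, all with none in WT. Tgtp1, Ifit1bl1 and the PYHIN genes have near-identical copies close by, and how their reads were shared out was not tested.

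Genes of myeloid surface and secreted proteins were also in this group. Treml4 (1892 bp of H3K4me3 in WTLPS), Trem3 (712 bp), Ms4a4c (1323 bp), the iron-binding Lcn2 (2214 bp), the protease inhibitor Cst7 (920 bp) and Phf11d (1716 bp) had none in WT. Lcn2, Cst7 and Trem3 had H3K27ac in WTLPS alone. The prostaglandin synthase Ptges (600 bp) and the IL-1 receptor Il1r1 (213 bp) had H3K27me3 in WT and not in WTLPS. Wfdc18 stood high by fold (16.9) with 44 bp inside the window, 2457 bp from the start site. Amigo3 had the highest fold of the class (32.4) and neither H3K27ac nor H3K27me3, but the summit of that peak lay 3496 bp from the start, outside the window, and a WT peak lay 2765 bp away. Of the 15 highest by fold among WTLPS-only promoters without both p65 and H3K27ac, 7 had a WT peak 2552 to 3465 bp from the start and 5 had their own nearest peak over 2 kb away.

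The 182 H3K27me3 promoters included those of Cxcl9, Nt5c1a, Ptges and Il1r1 above and, from the list of developmental factors, Six2 and Nkx2-1. Six2 (1540 bp of H3K4me3 in WTLPS, fold 7.43) kept H3K27me3 over 3569 bp in WT and 2162 bp in WTLPS. The adenylate cyclase Adcy5 (754 bp), the growth factor Gdnf (200 bp), the potassium channel Kcnj9 (243 bp) and the lung and thyroid factor Nkx2-1 (184 bp) also had H3K27me3 in both lists and neither p65 nor H3K27ac. Of all 182, H3K27me3 was still called at 159 in WTLPS, 87.4% (81.8 to 91.4%), and at 23 it was not. Of the 86 WT-only promoters with H3K27me3 in WT, 73 kept it, 84.9% (75.8 to 90.9%). Over all promoters, 5852 had H3K27me3 in WT, and 1691 of these had none in WTLPS. Loss of the call was thus not particular to the WTLPS-only class. Of the 182, 6 had H3K27ac in WT and 7 in WTLPS.

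WT-only promoters with high folds were mostly edges of a neighbouring peak. Of the 20 highest by fold, 17 had their nearest WT peak over 2 kb from the start, and 19 had a WTLPS peak 2506 to 2862 bp from the start, just outside the window. Pdap1 led, with fold 36.7 and 285 bp inside the window in WT, and a WTLPS peak 2848 bp from the start. At the limit of the rule, Car5a had 3 bp covered in WT and Ece2 4 bp in WTLPS, each with a peak of the other list at 2585 and 2861 bp. With no WTLPS peak within 5 kb, 119 of 160 WT-only promoters were left, and with no WT peak 200 of 241 WTLPS-only promoters.

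Among those 119, the highest by fold were Zfp993 (fold 12.1), Hoxc10 (7.17) and Cx3cr1 (6.72). Cx3cr1, the fractalkine receptor of monocytes and microglia (chromosome 9, start site at 120069879), had 1449 bp of H3K4me3 in WT and 0 in WTLPS, and 248 and 0 bp in KO and KOLPS. H3K27ac at its promoter covered 2084 bp in WT and 1066 bp in WTLPS. Il10, the anti-inflammatory cytokine, had 751 bp in WT and 0 in WTLPS, and 1118 and 0 bp in KO and KOLPS, with H3K27ac over 1696 and 1155 bp. Its H3K4me3 peak in WT was weak (fold 4.93), and H3K27me3 was called at Il10 in both WT and WTLPS. Others were the neuronal genes Scn1a and Slitrk5 and the meiotic cohesin subunit Rec8. The endothelial cadherin Cdh5 had 257 bp in WT only, a fold of 4.25 from 9 fragments. Hoxc10, Scn1a and Slitrk5, like Ifi208, Ifit1bl1, Il1r1 and Draxin above, were chosen after their values were seen.

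At promoters in both lists, H3K4me3 covered less of the window in WTLPS at 8348 of 11898 (70.2%) and more at 3448 (29.0%), with a median difference of -178 bp (WTLPS minus WT). WTLPS also had the lower background, and its part in the narrower peaks was not tested. In CTCF-KO cells 86.3% of the same promoters were narrower in KOLPS than in KO. Against this shift, 74 promoters gained 1 kb or more and 318 lost 1 kb or more.

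Interferon and LPS genes made up most of the 15 largest gains. Of the 15 largest, 8 had H3K27ac in WT and 12 in WTLPS, 4 had p65 in WTLPS and 5 had H3K27me3 in WT. Over all promoters in both, these shares were 75.2%, 70.1%, 4.68% and 24.1%. The 15 do not stand for all 74 promoters that gained 1 kb or more. Of the 74, 35 (47.3%) had H3K27ac in WT and 41 (55.4%) in WTLPS. H3K27me3 in WT lay at 41 of them (55.4%, 44.1 to 66.2%) and p65 in WTLPS at 7 (9.46%, 4.66 to 18.3%). Il27, a subunit of the cytokine IL-27, had 1768 bp covered in WT and 4449 bp in WTLPS, with H3K27ac over 1353 and 4751 bp. The antiviral genes Ifit3 (268 and 2332 bp), Rsad2 (1063 and 2809 bp), Cmpk2 (1970 and 3714 bp) and Ifit1 (2090 and 3824 bp) were also wider in WTLPS, as was the GTPase Tgtp2 (595 and 2876 bp). Rsad2 and Cmpk2 are neighbours, and Ifit1 and Ifit1bl2 had the same peaks, so they are not separate observations. Cyclooxygenase Ptgs2 (1719 and 3523 bp), chemokine Ccl5 (845 and 2445 bp), serum amyloid Saa3 (310 and 1883 bp) and the ectoenzyme Cd38 (3137 and 5001 bp) also gained. Nkx6-2, Tbr1 and Elfn1, neural genes with H3K27me3 in both lists, stood among the 15 too, with gains of 1888, 1464 and 1539 bp.

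**Figure D3:**
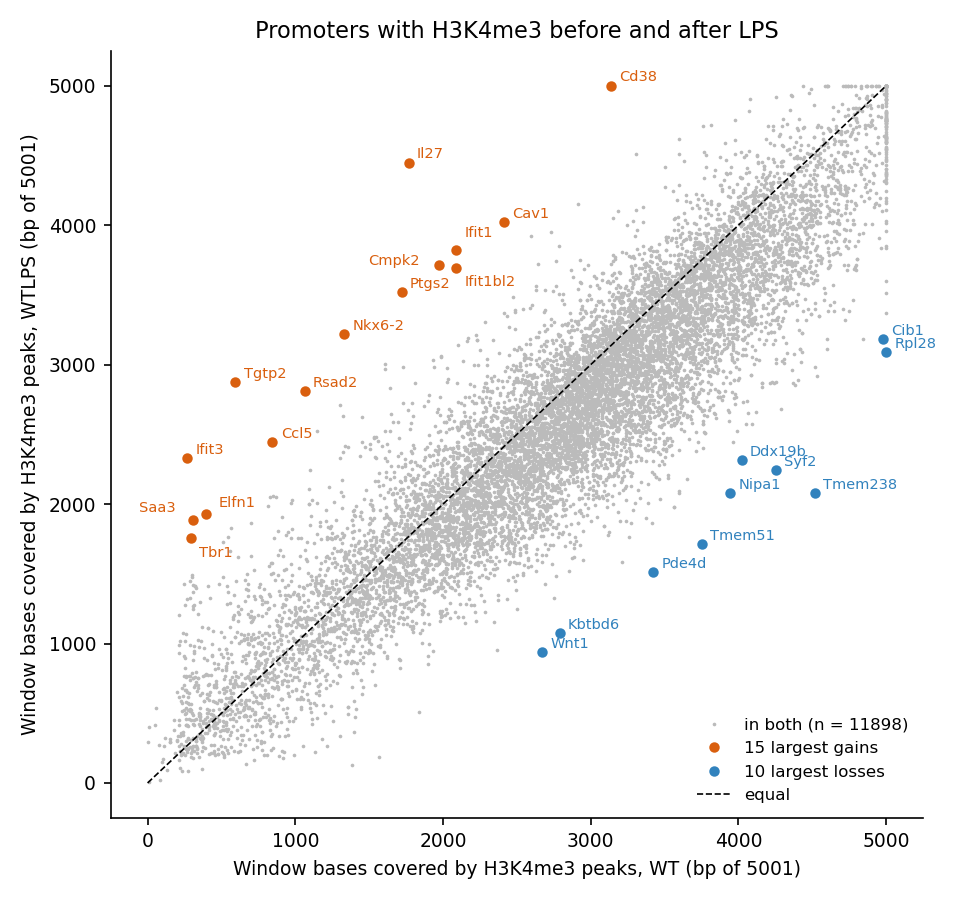
Bases of the 5001 bp window covered by H3K4me3 peaks in WT (x) and WTLPS (y) at the 11898 promoters with a peak in both lists; the dashed line marks equal cover, orange the 15 largest gains and blue the 10 largest losses. Most points lie under the line (8348 promoters), while Il27, Tgtp2, Ifit3 and Rsad2 lie far above it.

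Among the largest losses were the ribosomal protein gene Rpl28 with its neighbour Tmem238 (5001 to 3089 bp and 4518 to 2076 bp), the splicing factor Syf2 (4253 to 2245 bp), the phosphodiesterase Pde4d (3422 to 1512 bp) and Wnt1 (2669 to 939 bp). Of the 318 with a loss of 1 kb or more, 289 (90.9%, 87.2 to 93.6%) were also narrower in KOLPS than in KO, where 86.3% of all promoters in both were. Of the 74 with such a gain, 31 (41.9%, 31.3 to 53.3%) were wider in KOLPS than KO, where 12.2% (11.6 to 12.8%) of all promoters in both were.

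The highest p65 folds at promoters in both lay at genes with H3K4me3 over 2 kb or more before LPS. Such cover was usual in that class, whose first quartile in WT was 2131 bp. Sod2, the mitochondrial superoxide dismutase, had p65 of fold 87.9 and 3173 and 3548 bp of H3K4me3. Gsap (fold 43.7), the inflammasome sensor Nlrp3 (41.0), the formyl peptide receptor Fpr1 (36.1), complement factor Cfb (34.0) and Tnf (33.4) came next. H3K4me3 at Nlrp3 covered 3812 bp in WT and 3689 bp in WTLPS, and at Tnf 3326 and 2636 bp. Among the 557 promoters in both with p65 in WTLPS, 37.2% were wider in WTLPS, against 28.6% of the 11341 without it. Most were narrower in either group, 59.6% with p65 (median difference -95 bp) and 70.7% without it (-182 bp).

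Over all promoters 57.95% had H3K4me3 in WT, 1.16% had it in WTLPS only and 0.769% in WT only. The gene lists here and below are to be read beside these shares. Of 30 LPS-induced cytokine genes, 19 had H3K4me3 in both lists, 3 in WTLPS only (Il12b, Il1rn and Il33), 1 in WT only (Il10) and 7 in neither, Ifnb1, Il23a and Csf2 among them. At Il33, 56 bp at the edge of the window were covered. Of 24 chemokine genes measured, 14 were in both, 1 in WTLPS only (Cxcl9) and 9 in neither, and of 30 LPS-induced enzymes and effectors 21 in both, 4 in WTLPS only (Ptges, Serpinb2, Lcn2 and Marco) and 5 in neither. Nos2, the inducible nitric oxide synthase, had no H3K4me3 call in either list and H3K27ac in WTLPS alone. Of 22 NF-κB subunit and feedback genes, 20 were in both and none was in 1 list only. At the shares of all promoters, few or none would be looked for in a list of this size. Nfkb1 itself had no peak within 2.5 kb of the start of its longest transcript.

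Most interferon-stimulated genes in both were wider in WTLPS. Of 35 measured, 33 were in both and 2 in WTLPS only (Ifi44 and Tgtp1), and 28 of the 33 were wider in WTLPS and 5 narrower, where 29.0% of all promoters in both were wider. Their median cover was 2557 bp in WT and 2871 bp in WTLPS. H3K27ac lay at 31 of the 35 in WT and 35 in WTLPS, and p65 at 4 in WTLPS. Chemokine genes in both were wider at 11 of 14 and cytokine genes at 12 of 19. LPS-induced enzymes and effectors were wider at 13 of 21, dendritic cell maturation genes at 12 of 21 and AP-1 and immediate early factors at 11 of 29. NF-κB genes were wider at 7 of 20, developmental factors at 6 of 16 and a list of 28 markers of other cell types at 5 of 11. The last 2 lists had the lowest median cover in WT, 1780.5 and 1444 bp. The part of the starting cover in these counts was not tested. Housekeeping genes were all in both (22 of 22) and wider at 5, with a median of 3801 bp in WT and 3419 bp in WTLPS. Of the 28 myeloid and dendritic cell identity genes in both, 10 were wider and 17 narrower. No gene of that list was in 1 list only, where the shares of all promoters would give few or none.

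Developmental transcription factors carried H3K27me3. All 34 had it in WT and 33 in WTLPS, 16 had H3K4me3 in both and 2 in WTLPS only (Six2 and Nkx2-1). None had p65 in WTLPS. AP-1 and other immediate early factors were in both at 29 of 30, with Mafk in WTLPS only (195 bp). Genes of dendritic cell maturation were in both at 21 of 24. None of these was in 1 list only, again where few or none would be looked for at the shares of all promoters.

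The same promoters were read in CTCF-KO cells, whose libraries the classes did not use. H3K4me3 was called in KO and not KOLPS at 1.59% of all promoters and in KOLPS and not KO at 0.591%. Of the 241 WTLPS-only promoters, 29 were KOLPS only, 12.0% (8.51 to 16.7%), 36 KO only, 14.9% (10.99 to 19.99%), 91 in both and 85 in neither. Of the 160 WT-only promoters, 44 were KO only, 27.5% (21.2 to 34.9%), and 5 KOLPS only, 3.12% (1.34 to 7.11%), with 46 in both and 65 in neither. In each class both shares lay above those of all promoters, which themselves differ between KO only and KOLPS only. Most of all promoters were in both WT and WTLPS or in neither, and no set with equally weak peaks was compared. The 2 shares of a class come from the same promoters, and their difference was not tested.

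The counts are also given apart for acetylated and H3K27me3 members. Of the 35 acetylated WTLPS-only promoters, 9 were KOLPS only, 25.7% (14.2 to 42.1%), 2 KO only, 5.71% (1.58 to 18.6%), 4 in both and 20 in neither. The 9 were a predicted gene and Ifi205 (0 bp in KO and 2081 bp in KOLPS), Ifi44 (0 and 1087 bp), Tgtp1 (0 and 1114 bp), Il12b (0 and 862 bp), Ifi206 (0 and 526 bp), Ms4a4c (0 and 381 bp), Slpi (0 and 261 bp) and Trem3 (0 and 233 bp). Of the 182 with H3K27me3, 19 were KOLPS only, 23 KO only, 84 in both and 56 in neither. Il1rn, Marco, Lcn2, Serpinb2 and Cxcl9 had no H3K4me3 call in either CTCF-KO list. Of the 40 WT-only promoters with H3K27ac in WT, 14 were KO only and none KOLPS only, with an upper Wilson bound of 8.76%. The background of the H3K4me3 libraries was 1.20 fragments per base in KO and 1.13 in KOLPS, and its part in these counts was not tested.

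**Figure D4:**
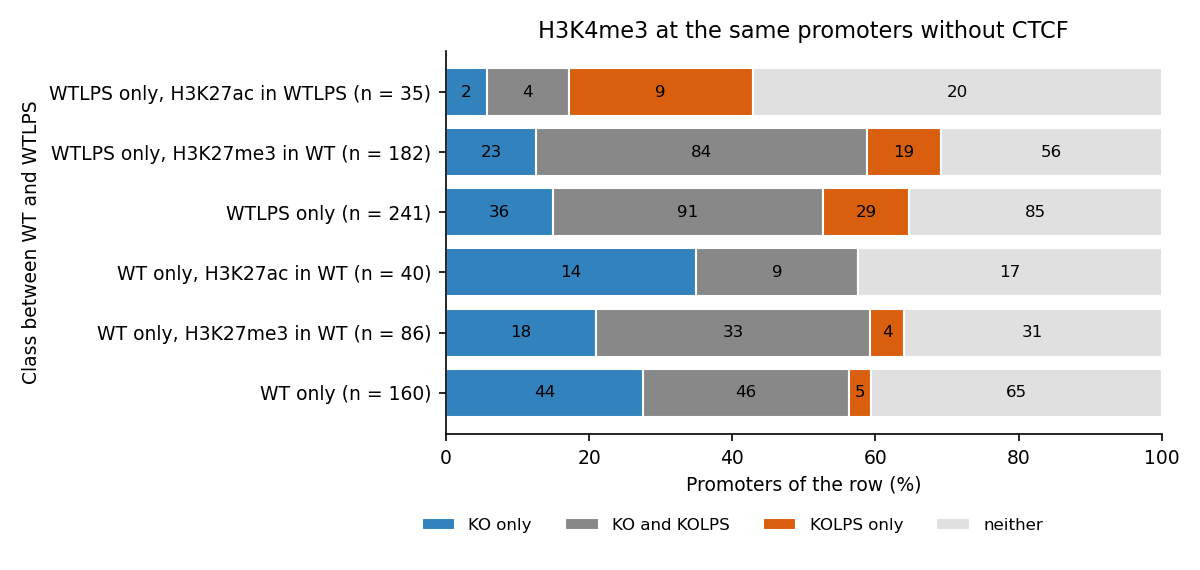
H3K4me3 class between KO and KOLPS (colours) of promoters grouped by their class between WT and WTLPS, as percent of each row, with the number of promoters written in each segment; 7 promoters are in both WTLPS-only mark rows and 5 in both WT-only mark rows. Acetylated WTLPS-only promoters hold 9 KOLPS-only and 2 KO-only members, H3K27me3 ones 19 and 23.

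The classes differed in base composition, taken from 250 bases before to 50 after each start. The CpG observed over expected ratio had a median of 0.772 at promoters in both, 0.572 in WTLPS only, 0.349 in WT only, 0.197 in neither and 0.550 over all. With no peak of the other list within 5 kb, the ratio was 0.594 in WTLPS only and 0.440 in WT only. Within WTLPS only it was 0.616 (quartiles 0.436 and 0.810) at the 182 H3K27me3 promoters and 0.198 (0.0887 and 0.326) at the 35 acetylated ones, close to the class with no H3K4me3. WT-only promoters showed 0.511 with H3K27me3 and 0.184 with H3K27ac. The 250 bases shown for Six2 and those of Ifi205 are examples of both kinds.

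The interferon response core, GAAA and GAAA set 2 bases apart and counted on both strands, stood at 5 of 35 acetylated WTLPS-only promoters, 14.3% (6.26 to 29.4%), 3 of 182 with H3K27me3, 1.65% (0.562 to 4.73%), and 3.58% of all. By class it stood at 4.15% of WTLPS-only, 6.25% of WT-only, 3.35% of both and 3.82% of neither. At WT-only promoters with H3K27ac in WT it stood at 3 of 40, 7.5% (2.58 to 19.9%). That interval overlaps the interval of the 35 acetylated WTLPS-only promoters. The NF-κB consensus stood at 4.98% of WTLPS-only, 5.62% of WT-only, 5.40% of both and 4.98% of all promoters, and at 12.2% of the 557 in both with p65. The 250 bases before the start held it at 0 of the 10 WTLPS-only promoters with p65 and H3K27ac. TATAAA on the strand of the gene, within 50 bases before the start, stood at 2.90% of WTLPS-only, 3.12% of WT-only, 1.42% of both and 6.12% of neither. These are matches of letters and show neither a bound site nor, where absent, that a factor does not bind.

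**Figure D5:**
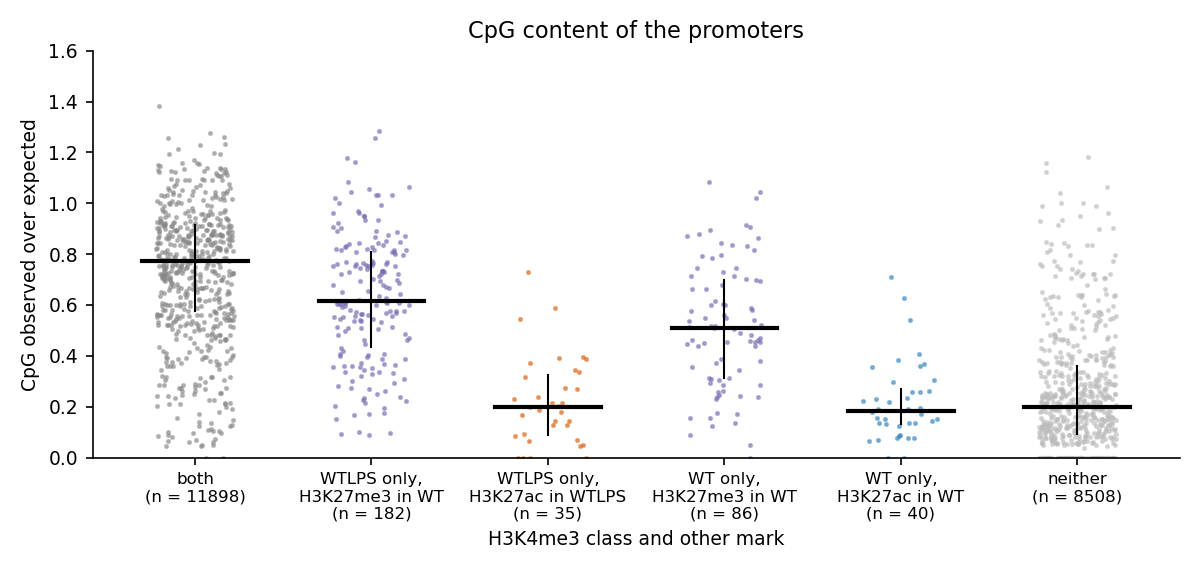
CpG observed over expected ratio from 250 bases before to 50 after the start site, by H3K4me3 class and by H3K27me3 or H3K27ac; points are promoters (at most 600 drawn per class), thick lines medians and thin lines quartiles. H3K27me3-marked promoters in 1 list only have medians of 0.616 and 0.511, and acetylated ones 0.198 and 0.184.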

How the data were processed

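ChIP-seq libraries of BMDCs were made by tagmentation and read as pairs. Per the study's methods, the authors trimmed reads, aligned them to mm10 with BWA, dropped duplicates with Picard and called peaks with MACS2. The submitters' processing notes name BWA 0.7.12, Picard 1.77 and MACS2 2.1.2, and the methods name later versions. The authors deposited 30 peak lists, 1 per antibody and condition, of which 19 were used. Each deposited peak has a fold, and a p-value and q-value from MACS2, both written as −log10. In lists that give a summit, the fold is the ratio of fragments there to those expected locally, with 1 added to each. The study made replicate ChIP-seq experiments for each condition. Its methods describe peak calls for each replicate and its reporting form a merging of replicates before a second round of processing. Neither says which of these a deposited list holds. H3K27me3 and H3K4me1 lists are broad peaks. Folds were compared within a list only.

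Promoters came from GENCODE vM21, with the longest transcript by summed exon length, on 19 autosomes. A peak counted as present with at least 1 bp in the window. The strongest peak was the one with the highest −log10 q. Fragments at a summit were recovered from deposited fold and −log10 p, for values below 25 and within 0.002, which succeeded for at least 99.99% of those peaks in both H3K4me3 lists, and the most frequent background level was taken as coverage. Sequences were read from the RefSeq genome GRCm38.p6. The calculation of classes and fragments was tested on simulated data. Named genes were those with both p65 and H3K27ac, the highest by fold in each class, the largest gains and losses of covered bases, list members in 1 list only, and the highest p65 folds, leaving out predicted gene models. By the same rule, sequences were to be shown for promoters with an NF-κB match before the start; none of 10 had one, so the sequences shown were chosen after values were seen. The members and gene lists were chosen with earlier results of these data known. Some genes are not reported here. Alternatives are listed in the closing section. numpy 2.4.6, pandas 2.3.3, scipy 1.17.1 and pysam 0.24.0 were used.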

Additional observations from a re-analysis of the deposited data

Results flagged for a closer look

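At some promoters, H3K4me3 calls or covered bases changed in opposite directions under LPS with and without CTCF. With 1 list per condition these differences were not tested. Promoters in 1 list only had peaks near the lowest value called. Of promoters in both WT and WTLPS, 97.6% were in both KO and KOLPS, and 97.0% of those in neither were in neither. The shares over all promoters rest mostly on these, and no set of equally weak peaks was compared. Of the WTLPS-only promoters, 36 (14.9%) had H3K4me3 in KO and not in KOLPS, against 1.59% of all promoters. Of the WT-only promoters, 5 (3.12%) had it in KOLPS and not in KO, against 0.591% of all promoters. Of the promoters in both lists with 1 kb or more of gain in WTLPS, 39 (52.7%) were covered less in KOLPS than in KO, where 86.3% of all promoters in both lists were. Of those with 1 kb or more of loss, 27 (8.49%) were covered more, where 12.2% of all promoters in both lists were. Neither opposite course in covered bases was thus more frequent than over all promoters in both lists. Among the named genes, covered bases in KOLPS minus KO were -831 bp at Nkx6-2, -165 bp at Ccl5 and -560 bp at Tbr1, which gained in WTLPS, and 204 bp at Rpl28, which lost.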

How the results depend on the processing

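No paired analysis was possible because each condition has 1 list and the result comes from no test. Counts of the classes stayed within 1.5 times under these alternatives: a window of 1 kb, all transcript starts, −log10 q of 5 or more, 200 bp covered, no other start in the window, a common lowest p, no peak of the other list within 5 kb, and WT thinned to the coverage of WTLPS, which gave 247.8 WTLPS-only and 153.5 WT-only promoters. An alternative chosen after seeing the data, with −log10 q of 5 or more in one list and no peak in the other, left 93 WTLPS-only and 56 WT-only promoters. There the H3K27ac share of WTLPS-only promoters was 24.7%, their H3K27me3 share 63.4%, their KOLPS share 56.99% and their median fold 5.57, and 23 of the 35 acetylated members remained. With a window of 1 kb the H3K27me3 share was 69.3%. With −log10 q of 5 or more in all lists the KOLPS share was 42.4% and the median fold 6.03, and 93 of the 241 WTLPS-only and 56 of the 160 WT-only members were the same. A window of 1 kb kept 199 and 100 of them. The p65 share ranged from 2.94 to 6.45% and the KO share of WT-only promoters from 54 to 62.5%. The H3K27ac share was 12.03% when counted within 1 kb of the start, and the CpG ratio of WTLPS-only promoters was 0.534 from 500 bases before to 100 after the start. The few fragments per peak and the single list per condition limit what can be said of any 1 promoter.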
